A study of Mus musculus with 16 samples.

Results

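The Gimap genes (GTPases of the immunity-associated protein family) were followed in regulatory and conventional CD4+ T cells of mice with a mutant thyroid hormone receptor alpha. The rows whose Ensembl identifiers map to Gimap1, Gimap3, Gimap4, Gimap5, Gimap6, Gimap7, Gimap8 and Gimap9 were taken, which gave 8 genes of the 47643 identifiers in each table, and all 8 were found in both tables. All 8 also passed the filter on low values in both subsets, so no member was left out of any test. Gimap proteins share a GTP-binding domain, sit on intracellular membranes such as the endoplasmic reticulum, mitochondria and lysosomes, and are expressed mainly in lymphocytes. Loss of some members, best known for Gimap5 in rats and mice, shortens the life of peripheral T cells and causes lymphopenia, and the genes are usually read as part of the machinery that keeps resting T cells alive. Thyroid hormone receptor alpha is a nuclear receptor that binds thyroid hormone and, through its zinc fingers, DNA.

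The mutant mice are named TRaGS in the labels. They carry a receptor alpha whose binding to DNA is abrogated, and the controls, TRaWT, are their wild-type littermates. The labels used here give no age, sex or strain background. From the spleen of each of 8 mice, 4 per genotype, CD4+ T cells were enriched with magnetic beads and then sorted by flow cytometry into CD25+ cells, called Treg below, and CD25- cells, which the study calls naive and which are called CD4 below. Each animal gave 1 library per subset, so the 16 libraries form 4 groups of 4, Treg TRaGS and Treg TRaWT, CD4 TRaGS and CD4 TRaWT. Sequencing was of 3′ tags, so a read marks the end of an mRNA next to its poly(A) tail. The values are normalised read counts, reads divided by 1 factor per library.

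Recovered depth was 2912038 to 4154027 reads in Treg and 2679119 to 5095278 reads in CD4. A single gene, Gm42418, took 20.8% to 33.0% of the reads in Treg and 21.1% to 41.1% in CD4. The sorted subsets carried their labels: Treg identity genes (Foxp3, Il2ra and others, 7 genes) summed to 2308 to 3665 RPM (recovered reads scaled to an equal total in every library) in the Treg libraries, against 288 to 505 in the CD4 libraries. Markers of B cells (11 genes) summed to 357 to 844 RPM in Treg and 325 to 770 in CD4, and markers of CD8 T cells, NK cells, myeloid cells and erythroid cells did not exceed 119 RPM in any library. In these bulk samples, fewer cells of a type and less RNA per cell cannot be told apart.

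The 8 genes lie side by side on mouse chromosome 6, chr6:48647234-48770851 in GRCm38, a stretch of 123.6 kb. The first genes along it are Gimap8 (Ensembl gene ENSMUSG00000064262, bases 48647234 to 48660875), Gimap9 (Ensembl gene ENSMUSG00000051124, bases 48676129 to 48679114), Gimap4 (Ensembl gene ENSMUSG00000054435, bases 48684549 to 48692060) and Gimap6 (Ensembl gene ENSMUSG00000047867, bases 48701582 to 48708225). They are followed by Gimap7 (Ensembl gene ENSMUSG00000043931, bases 48718621 to 48724636), Gimap1 (Ensembl gene ENSMUSG00000090019, bases 48739054 to 48743795), Gimap5 (Ensembl gene ENSMUSG00000043505, bases 48746197 to 48754210) and Gimap3 (Ensembl gene ENSMUSG00000039264, bases 48764464 to 48770851). Gimap6 and Gimap3 are on the minus strand and the other 6 genes on the plus strand. The members are related in sequence, but no run of 50 bases from the last 500 bases of any member's transcripts was found in another member, so reads of that length from these ends separate them. Of such runs, 6.01% of those from Gimap1 also occurred in Gm10310, Gm28053 or Gm49762, and 3.53% of those from Gimap3 in Gm38409. Gm28053 shares exonic bases with Gimap7, Gimap1 and Gimap5 (3.48%, 6.44% and 3.69% of their exonic bases). The antisense gene Gimap1os covers 36.0% of the exonic bases of Gimap1. Neither gene covers the last 500 exonic bases of these gene models, counted from the 3′-most end, but the shared runs from Gimap1 show that some of its annotated transcript ends also occur in Gm28053 or the other genes named.

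Since the mutation removes the receptor's contact with DNA, the promoters of the family were searched for the receptor's half-site, AGGTCA, and for the cores bound by Runx factors (TGTGGT), forkhead factors (GTAAACA), Ets factors (TTCCGG) and Tcf1 and Lef1 (CTTTGA), on both strands. RefSeq promoter windows on GRCm38.p6, from 250 bases before to 50 bases after the transcription start, were matched for all 8 genes (9 windows, Gimap8 having a pair). The 4 genes whose windows held any of the 5 motifs are shown in their own orientation up to base 30 after the start, with the matching bases in capitals. Gimap4 is on the plus strand at chr6:48684328-48684607, Gimap7 on the plus strand at chr6:48718371-48718650, Gimap1 on the plus strand at chr6:48738797-48739076 and Gimap3 on the minus strand at chr6:48770822-48771101.
Gimap4: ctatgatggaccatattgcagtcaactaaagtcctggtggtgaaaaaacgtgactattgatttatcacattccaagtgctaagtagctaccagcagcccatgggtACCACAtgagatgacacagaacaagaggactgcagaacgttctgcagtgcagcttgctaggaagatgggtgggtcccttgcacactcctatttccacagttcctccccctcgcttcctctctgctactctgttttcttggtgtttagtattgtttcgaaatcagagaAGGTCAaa
Gimap7: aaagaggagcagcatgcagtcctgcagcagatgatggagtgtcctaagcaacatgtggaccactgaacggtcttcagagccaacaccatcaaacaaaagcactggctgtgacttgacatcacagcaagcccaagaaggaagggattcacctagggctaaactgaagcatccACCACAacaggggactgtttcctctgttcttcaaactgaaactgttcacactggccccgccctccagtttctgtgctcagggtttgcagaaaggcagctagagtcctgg
Gimap1: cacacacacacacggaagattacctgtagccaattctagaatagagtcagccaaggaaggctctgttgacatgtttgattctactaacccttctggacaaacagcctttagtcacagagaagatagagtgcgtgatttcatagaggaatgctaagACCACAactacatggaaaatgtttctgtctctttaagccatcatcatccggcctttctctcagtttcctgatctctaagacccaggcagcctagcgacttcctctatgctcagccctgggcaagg
Gimap3: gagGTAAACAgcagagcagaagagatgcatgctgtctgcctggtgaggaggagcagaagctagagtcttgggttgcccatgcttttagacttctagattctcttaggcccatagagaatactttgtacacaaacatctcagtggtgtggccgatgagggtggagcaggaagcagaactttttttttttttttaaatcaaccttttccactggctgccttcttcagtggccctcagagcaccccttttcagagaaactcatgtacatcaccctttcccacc
AGGTCA was present in the Gimap4 window alone, 23 bases after the start, where 1 of 9 member windows compares with 16.3% of all 32851 windows. The Runx core stood in the reverse direction (ACCACA) in Gimap4, Gimap7 and Gimap1, at 145, 79 and 95 bases before the start, 3 of 9 member windows against 16.8% of all windows. The forkhead core was found in Gimap3, 247 bases before the start (1 of 9 against 3.65%). The Tcf1 and Lef1 core was found in Gimap4 in the reverse direction at base 26, overlapping the AGGTCA, and in Gimap7 at base 43, both beyond or across the end of the printed stretch (2 of 9 against 16.0%). TTCCGG was found in 0 of 9 member windows, against 14.9% of all windows. These are matches of letters in a short window and are no measure of binding.

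The level of the genes was compared first, as counts of 3′ tags, which do not scale with transcript length and were not divided by it. Gimap4, which in rodents modulates the death of T cells, was the most abundant member in every library, with a mean of 2970 normalised counts in Treg and 2382 in CD4 (n = 8 libraries each). In Treg it was followed by Gimap3 with 1481, Gimap9 with 1150, Gimap6 with 1109, Gimap8 with 921, Gimap7 with 689, Gimap1 with 617 and Gimap5 with 359 normalised counts. The ranges of neighbouring genes in this order overlapped over the 8 Treg libraries, except that Gimap4 lay above Gimap3 and Gimap5 lay below Gimap1 in all of them. In CD4 the order was Gimap4, Gimap3 with 1149, Gimap6 with 1104, Gimap9 with 984, Gimap8 with 685, Gimap1 with 620, Gimap7 with 351 and Gimap5 with 252. There, too, Gimap4 lay clear of all others, and all the remaining neighbours overlapped. Every member had at least 302 reads in each Treg library and at least 147 in each CD4 library. Counting error alone gives coefficients of variation of 1.74% to 6.55% for the members. The coefficient of variation between animals of a genotype had a median over the members of 16.5% in Treg and 17.3% in CD4, and genes of similar level had medians of 14.5% in Treg and 25.5% in CD4.

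**Figure D1:**
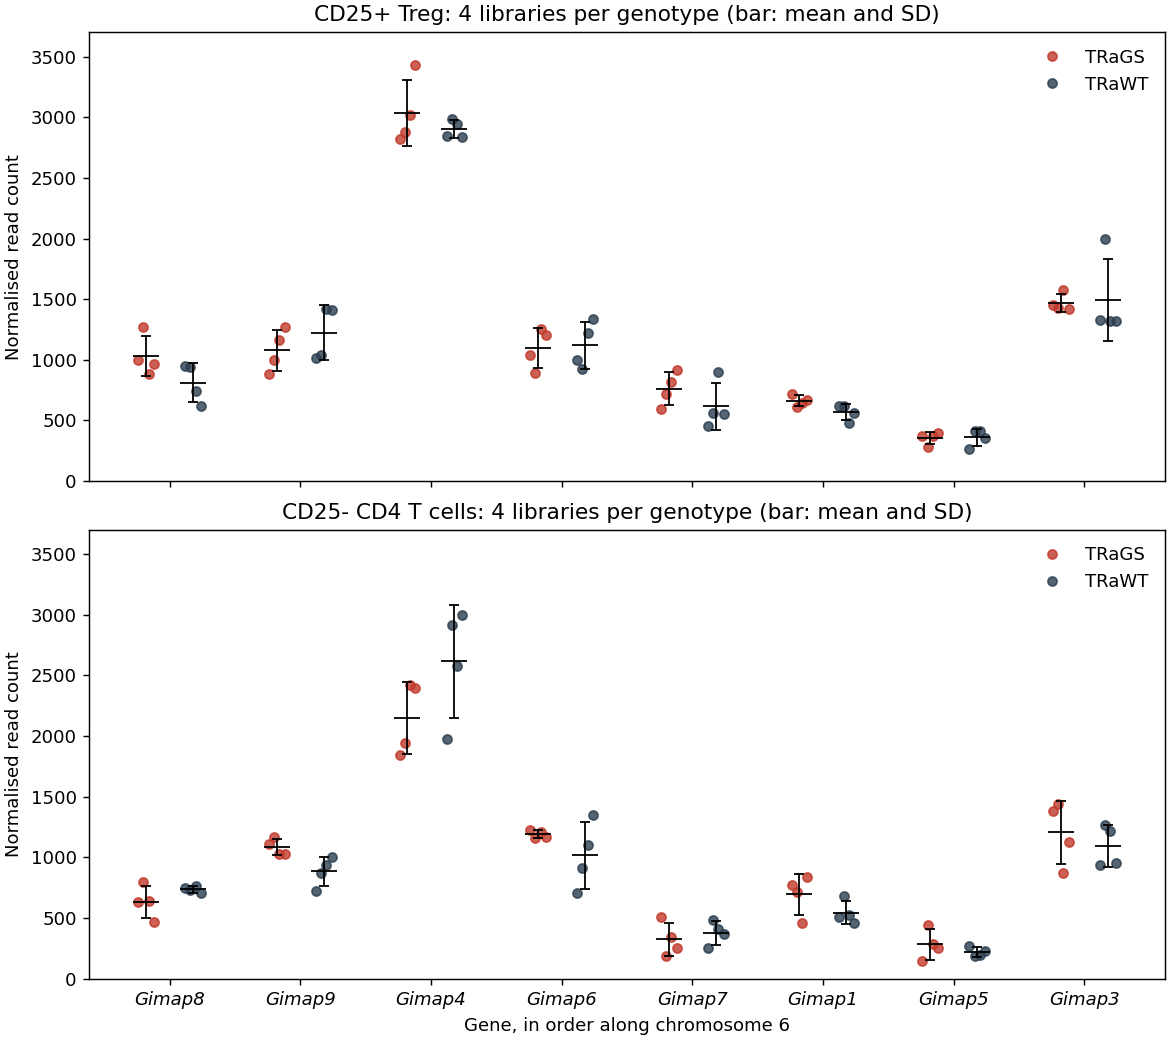
Normalised read count (vertical axis) of the 8 Gimap genes, in their order along chromosome 6 (horizontal axis), with 1 point per library, red for TRaGS and dark blue for TRaWT; bars give the mean and SD of 4 libraries, Treg above and CD4 below. The genotypes overlap for every gene except Gimap9 in CD4, where the 4 TRaGS libraries lie between 1030 and 1165 and the 4 TRaWT libraries between 722 and 1004.

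The first question was whether loss of DNA binding by the receptor changed the family in Treg. No member passed the threshold: 0 of 8 were called by limma, while 0.959% of the 11051 genes tested were called (106 genes, 81 higher and 25 lower in TRaGS). On the recovered reads, edgeR and DESeq2 also called 0 members, and 90 and 138 genes in all. At an unadjusted p under 0.05, 1 member, Gimap8, stood among 1008 genes. Nor was there any member whose 4 TRaGS values lay wholly above or below its 4 TRaWT values, which 5.07% of all genes tested showed.

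The members tied most closely to lymphocyte survival were taken one by one. Gimap5, whose loss in rats and mice causes lymphopenia, had 375, 284, 371 and 398 normalised counts in Treg of TRaGS mice, against 262, 414, 415 and 354 in Treg of TRaWT mice. The 2 genotypes covered much the same range, with a log2 fold change (TRaGS minus TRaWT) of -0.01 ± 0.19 (SE) and a 95% interval of -0.40 to 0.39. Gimap1, needed in mice for the maintenance of mature T and B cells, had 721, 613, 648 and 671 normalised counts in TRaGS Treg, against 616, 622, 482 and 566 in TRaWT Treg. In 3 of 4 TRaGS libraries the value exceeded all TRaWT values, and the log2 fold change was 0.22 ± 0.16 (95% interval -0.10 to 0.54).

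Gimap8, which is distinguished by several GTP-binding domains in 1 protein, had the smallest p of the family in Treg. Its normalised counts were 1001, 1267, 883 and 968 in TRaGS Treg, against 952, 938, 743 and 616 in TRaWT Treg. The lowest TRaGS library lay within the TRaWT range. The log2 fold change was 0.35 ± 0.16 (95% interval 0.03 to 0.67), with an unadjusted p of 0.0315 and a limma adjusted p of 0.475, so it was not called. The log2 fold change of Gimap8 was 0.23 without TRaWT replicate 4, and its unadjusted p did not stay under 0.05 without that library, without TRaGS replicate 2, without TRaWT replicate 3 or without a variance trend.

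Gimap7, whose protein is known to stimulate GTP hydrolysis when it pairs with another Gimap protein, had 597, 716, 814 and 918 normalised counts in TRaGS Treg, against 451, 560, 897 and 554 in TRaWT Treg. TRaWT replicate 3 was as high as the upper TRaGS libraries, while the other 3 TRaWT libraries lay below all TRaGS libraries. The log2 fold change was 0.34 ± 0.18 (95% interval -0.02 to 0.70, limma adjusted p = 0.593). Gimap9, for which little is known, had 881, 1001, 1160 and 1268 normalised counts in TRaGS Treg, against 1016, 1038, 1421 and 1414 in TRaWT Treg, a log2 fold change of -0.18 ± 0.15.

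Gimap4 had 2819, 2879, 3022 and 3427 normalised counts in TRaGS Treg, against 2845, 2983, 2945 and 2838 in TRaWT Treg. The TRaWT libraries were within a narrow band, and the log2 fold change was 0.06 ± 0.12 (95% interval -0.18 to 0.31). Gimap6, which binds the ATG8 proteins of the autophagy machinery, had 1041, 892, 1255 and 1203 in TRaGS Treg, against 996, 923, 1223 and 1336 in TRaWT Treg, a log2 fold change of -0.02 ± 0.15. Gimap3, a membrane-anchored relative of Gimap5, had 1456, 1426, 1574 and 1421 in TRaGS Treg, against 1329, 2000, 1320 and 1324 in TRaWT Treg. TRaWT replicate 2 stood far above the other 3 TRaWT libraries, which all lay below the TRaGS range. Without that library the log2 fold change moved to 0.15, against -0.00 ± 0.14 with it, and Gimap3 was not called in either case.

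Over the 8 members the Treg fold changes were 4 positive and 4 negative with a median of 0.03, beside 50.5% positive and a median of 0.01 over all genes tested. Their median size without sign was 0.119, against 0.317 over all genes, many of which are far less abundant. Summed over the family, the level was 9493 ± 632 normalised counts in TRaGS Treg and 9098 ± 474 in TRaWT Treg (SD, n = 4 each), and the ranges, 8891 to 10274 and 8466 to 9478, overlapped.

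In CD4 the comparison gave the same count: 0 of 8 members were called by limma, with 0.0575% of the 10426 genes tested called (6 genes, all higher in TRaGS). Here edgeR and DESeq2 called 0 members and 3 and 10 genes. At an unadjusted p under 0.05 there were 0 members and 539 genes. For CD4, limma pooled the variance fully along its trend, so an SE or p-value in this subset reflects genes of like level and not the gene's own scatter between animals. Pooling was partial in Treg and for the difference between subsets (prior degrees of freedom 36.8 and 106). There, too, an SE or p-value leans on genes of like level. The smallest limma adjusted p of a member was 0.947.

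Gimap9 was the single member without overlap between genotypes in CD4, where 3.16% of all genes tested had none. It had 1110, 1165, 1031 and 1030 normalised counts in TRaGS CD4 cells, against 722, 873, 939 and 1004 in TRaWT CD4 cells. Each TRaGS library lay above the highest TRaWT library, but the gap between the groups was narrow, and the log2 fold change was 0.30 ± 0.24 (95% interval -0.17 to 0.78). Its share of the summed Gimap level was 14.3% ± 0.505 in TRaGS CD4 cells and 11.8% ± 0.699 in TRaWT CD4 cells (SD, n = 4 each).

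The other members overlapped. Gimap6 had 1227, 1158, 1213 and 1167 normalised counts in TRaGS CD4 cells, against 703, 910, 1103 and 1350 in TRaWT CD4 cells, so that the TRaGS libraries were close together inside a wide TRaWT range (log2 fold change 0.27 ± 0.23). Gimap1 had 768, 717, 457 and 841 in TRaGS CD4 cells, against 509, 682, 523 and 460 in TRaWT CD4 cells (0.34 ± 0.28). In 3 of 4 TRaGS libraries the value exceeded all TRaWT values, and TRaGS replicate 3 was the lowest of all 8. Gimap5 had 144, 445, 289 and 252 in TRaGS CD4 cells, against 274, 187, 195 and 230 in TRaWT CD4 cells, the TRaGS libraries holding both the lowest and the highest value (0.25 ± 0.39, 95% interval -0.51 to 1.02). Gimap3 had 1386, 1439, 869 and 1129 in TRaGS CD4 cells, against 934, 1266, 1218 and 952 in TRaWT CD4 cells (0.13 ± 0.23).

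For 3 members the CD4 mean was lower in TRaGS. Gimap4 had 1844, 1939, 2417 and 2393 normalised counts in TRaGS CD4 cells, against 1976, 2915, 2575 and 2996 in TRaWT CD4 cells (-0.28 ± 0.19, 95% interval -0.65 to 0.10). Of the TRaWT libraries, 3 of 4 exceeded every TRaGS library. Gimap8 had 636, 794, 639 and 466 in TRaGS CD4 cells, against 748, 732, 761 and 702 in TRaWT CD4 cells (-0.24 ± 0.27), the TRaGS libraries lying on both sides of a narrow TRaWT band. Gimap7 had 509, 189, 343 and 254 in TRaGS CD4 cells, against 252, 486, 409 and 365 in TRaWT CD4 cells (-0.28 ± 0.34, 95% interval -0.95 to 0.39). The summed level was 7566 ± 243 normalised counts in TRaGS CD4 cells and 7488 ± 926 in TRaWT CD4 cells (SD, n = 4 each). Over the members, 5 fold changes were positive and 3 negative, with a median of 0.19 beside -0.01 over all genes tested.

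**Figure D2:**
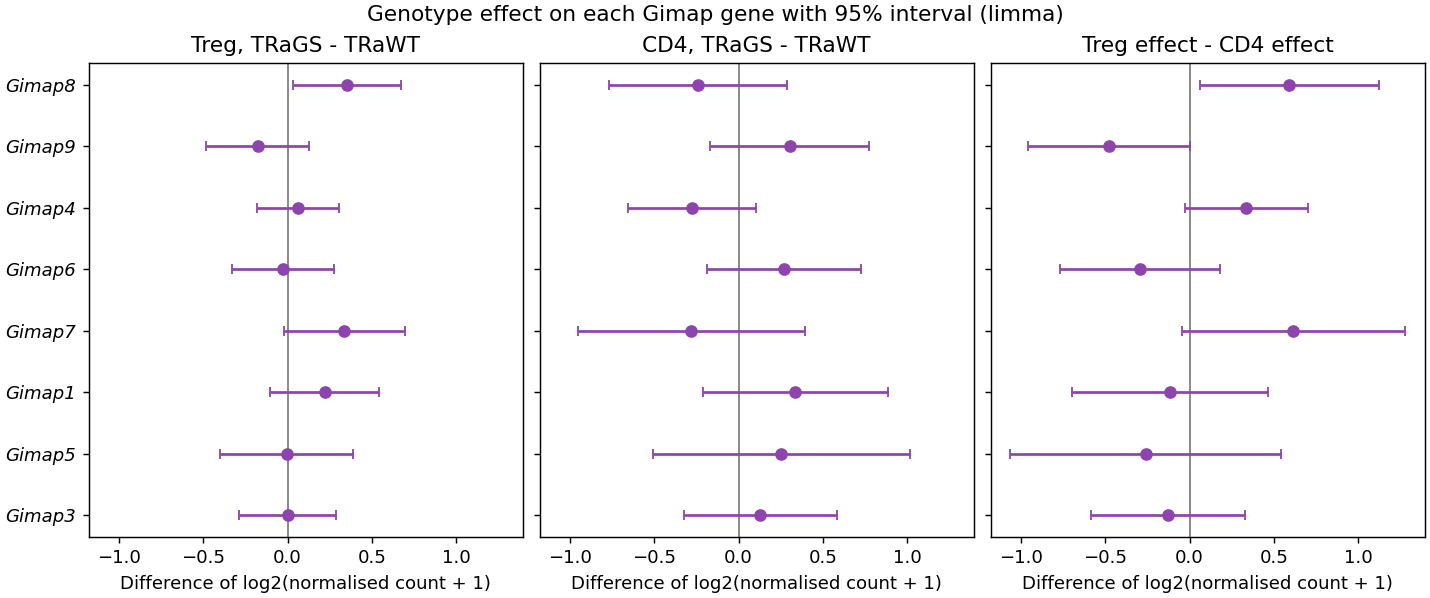
Log2 fold change of each Gimap gene (horizontal axis, difference of log2(normalised count + 1)) with its 95% limma interval, for TRaGS minus TRaWT in Treg, for TRaGS minus TRaWT in CD4, and for the Treg effect minus the CD4 effect; genes run down the page in chromosome order. With all libraries and the settings of the report, the interval of Gimap8 excludes 0 in Treg (0.03 to 0.67) and in the difference (0.06 to 1.12), and Gimap8 was not called after adjustment in either.

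Whether the genotype effect differed between Treg and CD4 was tested on log2 differences taken within animals. Here 0 of 8 members were called by limma, with 0.171% of 9914 genes called (17 genes). No count model was run on this contrast. At an unadjusted p under 0.05 there was 1 member, Gimap8, among 656 genes. For Gimap8 the Treg effect exceeded the CD4 effect by 0.59 ± 0.27 log2 units (95% interval 0.06 to 1.12, unadjusted p = 0.0292, limma adjusted p = 0.691). The unadjusted p of Gimap8 was not under 0.05 without TRaGS replicate 4, without TRaWT replicate 3 or 4, with TRaGS replicates 1 and 2 alone, or without a variance trend, while Gimap4, Gimap7 or Gimap9 had one under 0.05 in some alternatives. Gimap7 had a difference of 0.62 ± 0.33 (95% interval -0.05 to 1.28), which ran from 0.38 to 0.98 over 16 alternatives (0.98 when TRaGS replicate 1 was left out, 0.41 when TRaGS replicate 2 was), and Gimap4 had 0.34 ± 0.18. Gimap9 lay in the other direction with -0.48 ± 0.24 (95% interval -0.96 to 0.00), and Gimap6, Gimap5, Gimap3 and Gimap1 had -0.29, -0.26, -0.13 and -0.12. None of these shows that a member responded alike in both subsets, since the narrowest interval, that of Gimap4, ran from -0.03 to 0.70.

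A further question was whether the cluster moves as a unit from library to library. In each library the members above their subset's median were counted. In Treg the counts were 4, 3, 6 and 7 of 8 in TRaGS libraries and 1, 4, 5 and 2 in TRaWT libraries. In CD4 they were 5, 5, 4 and 4 in TRaGS libraries and 2, 5, 4 and 3 in TRaWT libraries. The members thus stood mostly on one side of the median in Treg TRaGS replicate 4 (7 above) and Treg TRaWT replicate 1 (7 below), and were mixed in most other libraries.

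Pairs of members were then correlated over the 8 libraries of a subset after the genotype means were removed. These correlations rest on 8 animals, share the libraries' scaling, and are given as a description. Of the 28 pairs, 15 were positive and 13 negative in Treg, with a median Pearson r of 0.20, and 15 positive and 13 negative in CD4, with a median of 0.02. Over all pairs of genes at the members' levels the medians were 0.01 in Treg (1112 genes) and 0.08 in CD4 (1558 genes). Of the 28 pairs, 8 were positive in both subsets, 6 were negative in both and 14 had opposite signs. Those positive in both were every pair among the neighbours Gimap9, Gimap4, Gimap6 and Gimap7, and Gimap3 with Gimap8 and with Gimap1. Among these neighbours r ran from 0.31 to 0.83 in Treg and from 0.25 to 0.89 in CD4. This set was picked out after the values were seen and was not tested.

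Gimap9 and Gimap6 formed the highest pair in each subset, at r = 0.83 in Treg and 0.89 in CD4, with Spearman's rho of 0.57 and 0.64. Without the 2 libraries farthest from the median of Gimap9, r was 0.92 in Treg and 0.36 in CD4, so in CD4 the relation rested on those libraries. Gimap8 and Gimap6 ran in opposite directions in Treg (r = -0.96, rho = -0.95, and -0.93 without the 2 farthest libraries), but had r = -0.09 in CD4. Gimap7 and Gimap5 had r = 0.60 in Treg and r = -0.90 in CD4 (rho 0.62 and -0.83). These pairs were singled out for their extreme values, so no p is attached to them. Pairs that lie side by side on the chromosome varied. Gimap9 with Gimap4 had r = 0.54 in Treg and 0.45 in CD4, Gimap4 with Gimap6 0.31 and 0.63, and Gimap6 with Gimap7 0.50 and 0.35. Gimap1 with Gimap5 had -0.13 and -0.31. The sign differed between subsets for Gimap8 with Gimap9 (-0.73 and 0.24), Gimap7 with Gimap1 (-0.78 and 0.08) and Gimap5 with Gimap3 (0.40 and -0.23).

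**Figure D3:**
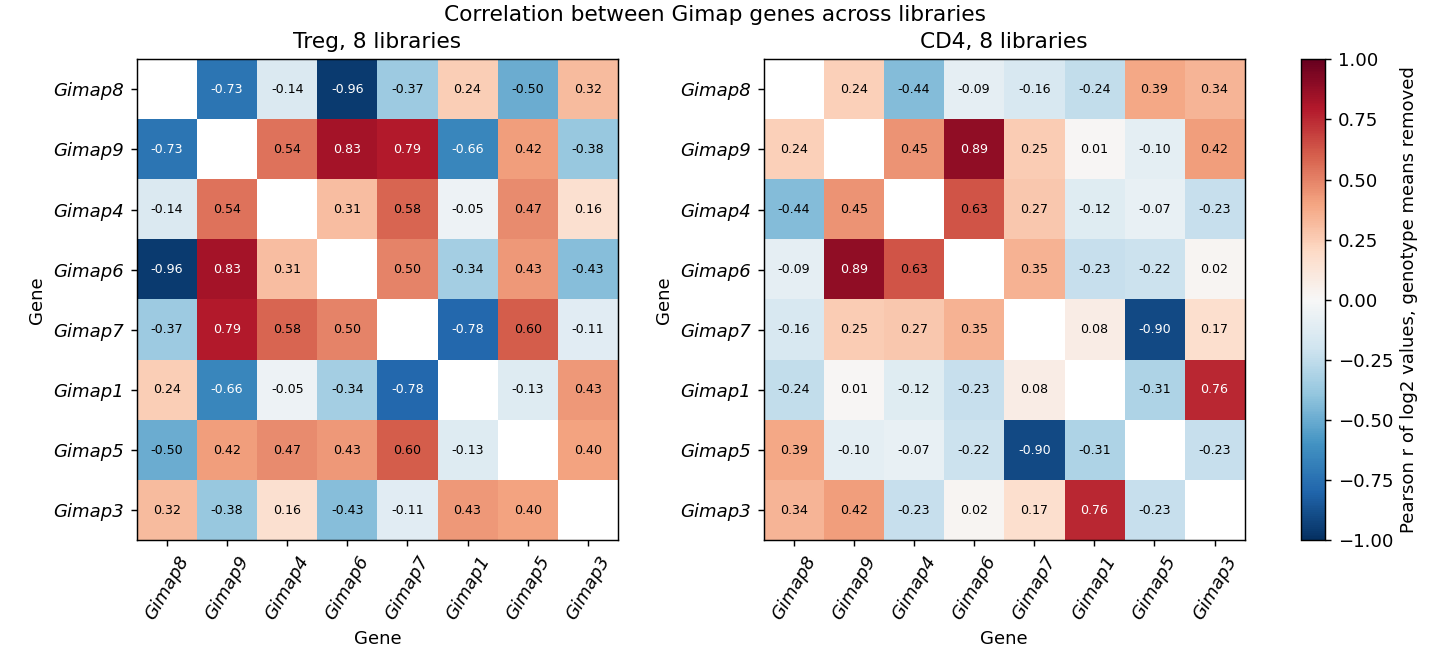
Pearson correlation between each pair of Gimap genes over the 8 libraries of a subset with genotype means removed, Treg on the left and CD4 on the right, genes in chromosome order on both axes and colour from -1 (blue) to 1 (red). Both colours fill each panel, with 15 positive and 13 negative pairs in each, and Gimap9 with Gimap6 is red in both.

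By the rule set for likeness, the 6 genes whose level followed the mean Gimap level most closely in both subsets were Creb1, Ctdsp1, Med19, Snx5, Nfyb and Dnajc15, ranked by the lower of the Pearson correlations over 8 Treg and 8 CD4 libraries among 5218 genes. That lower value was 0.81 for Creb1, which encodes a cyclic AMP-responsive transcription factor, 0.76 for Ctdsp1, 0.74 for Med19, 0.73 for Snx5, 0.72 for Nfyb and 0.71 for Dnajc15. With 8 libraries and so many genes ranked, values of this size are a description of these libraries.

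The subsets were compared as RPM within each animal, since the 2 tables were normalised separately and levels between them were not tested. The summed Gimap level was 2884 ± 212 RPM in Treg and 2322 ± 179 in CD4 (SD, n = 8 animals), a ratio of 1.24, and was higher in Treg in 8 of 8 animals. RPM values move with the share taken by Gm42418. Without that gene the sum was higher in Treg in 7 of 8 animals, and the median log2 ratio was 0.22, against 0.34 with it. Over the 9914 genes tested in both subsets the median log2 ratio was itself 0.22 with that gene counted.

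Among the members, Gimap7 had the highest ratio between subsets. It had 194, 239, 246 and 279 RPM in Treg of TRaGS mice and 141, 184, 264 and 157 in Treg of TRaWT mice, against 154, 52.4, 105 and 82.9 in CD4 cells of TRaGS mice and 84.7, 159, 129 and 104 in CD4 cells of TRaWT mice. The mean was 213 ± 51.0 in Treg and 109 ± 36.6 in CD4, a ratio of 1.96, and Treg was higher in 8 of 8 animals with and without Gm42418. Of the 9914 genes, 6.34% were higher in Treg in all 8 animals. As a share of the summed Gimap level, which no scaling between tables can change, Gimap7 made up 7.35% ± 1.53 in Treg and 4.65% ± 1.39 in CD4, higher in Treg in 7 of 8 animals.

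Gimap3 was also higher in Treg in 8 of 8 animals (462 ± 88.7 RPM in Treg and 354 ± 61.9 in CD4), or 7 of 8 without Gm42418. Gimap4 and Gimap9 were higher in Treg in 7 of 8 animals each, Gimap8 and Gimap5 in 6, Gimap1 in 5 and Gimap6 in 4. Without Gm42418 the counts were 7 for Gimap9, 6 for Gimap8 and Gimap5, 5 for Gimap4, 4 for Gimap1 and 1 for Gimap6, so that Gimap6 was then lower in Treg in 7 of 8 animals (median log2 ratio -0.09). These counts pool the genotypes. With Gm42418 counted, the mean log2 ratio of Treg to CD4 was 0.77 in TRaGS and 0.07 in TRaWT animals for Gimap8. It was 0.57 and 0.12 for Gimap4, 0.04 and 0.41 for Gimap9, and 0.50 and 0.65 for Gimap5. Gimap6 had 342 ± 33.7 RPM in Treg and 339 ± 51.6 in CD4, and its share of the summed Gimap level was lower in Treg in 7 of 8 animals (11.9% ± 1.68 in Treg and 14.6% ± 2.16 in CD4). Gimap4 had a mean share of 32.0% ± 0.971 in Treg and 31.6% ± 4.80 in CD4 with the genotypes pooled. By genotype its share was 28.5% ± 4.72 in TRaGS CD4 cells and 34.8% ± 2.31 in TRaWT CD4 cells. In Treg it was 32.0% ± 0.979 in TRaGS and 31.9% ± 1.11 in TRaWT (SD, n = 4 each).

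**Figure D4:**
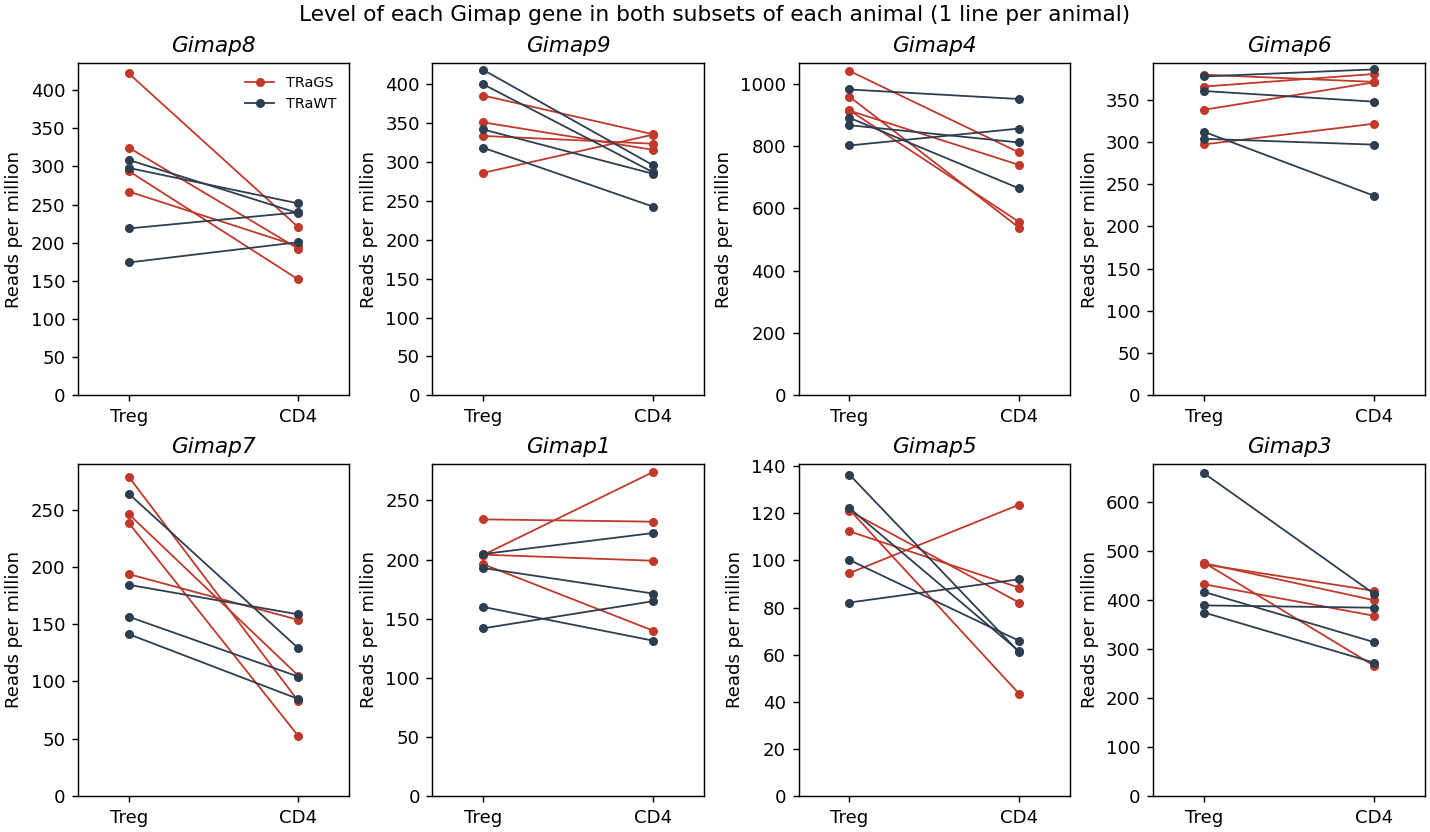
RPM (vertical axis, from 0) of each Gimap gene in Treg (left) and CD4 (right) of the same animal, with 1 line per animal, red for TRaGS and dark blue for TRaWT. All 8 lines fall from left to right for Gimap7 and Gimap3, while the lines of Gimap6 and Gimap1 run in both directions.

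Other genes of T cell survival were examined beside the family, in lists of genes with known functions. The lists were chosen with earlier results of these data known, so their counts and medians are a description. Of 16 receptors, signalling proteins and transcription factors of survival and quiescence, 0 were called higher and 2 lower in Treg of TRaGS mice. Foxp1, a forkhead factor that keeps T cells quiescent, fell to 1484 ± 324 normalised counts in TRaGS Treg, against 2512 ± 83.0 in TRaWT Treg (log2 fold change -0.79 ± 0.14, limma adjusted p = 0.000999). Satb1, a chromatin organiser of T cells, fell to 1125 ± 181, against 1692 ± 232 (-0.59 ± 0.14, limma adjusted p = 0.0231), and lost its call in 8 of 19 alternatives, among them those without TRaGS replicate 3 or 4 and without TRaWT replicate 2 or 4. Foxp1 lost its call in 2 of 19, without a variance trend and with TRaGS replicates 1 and 2 alone. The median of this list in Treg was -0.28, with 3 of 16 fold changes positive, beside a median of 0.01 for all genes tested. The same list went the other way in CD4, with a median of 0.16 and 13 of 16 positive, beside -0.01 for all genes tested. In CD4, 0 of 16 were called by limma, edgeR or DESeq2 (3 at an unadjusted limma p under 0.05), and Tcf7 (0.57 ± 0.20) and Il7r (0.46 ± 0.19), the receptor for interleukin 7, had the smallest p. The difference between subsets was called for Foxp1 (-0.86 ± 0.19, limma adjusted p = 0.0181), a call lost in 11 of 16 alternatives, including those without any 1 animal except TRaGS replicate 2.

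Of the Bcl2 family, which sets the threshold for apoptosis, 1 of 11 tested genes was called in each subset and it was Bcl2 itself, in opposite directions. Bcl2 fell to 1050 ± 225 normalised counts in TRaGS Treg, against 1837 ± 171 in TRaWT Treg (-0.83 ± 0.15, limma adjusted p = 0.000999). That call was lost in the same 2 alternatives as that of Foxp1. In CD4 it rose to 2481 ± 224 in TRaGS cells, against 1212 ± 223 in TRaWT cells (1.05 ± 0.21, limma adjusted p = 0.00237), a call lost in 6 of 19 alternatives, among them those without TRaGS replicate 1 and without TRaWT replicate 3 or 4. Its difference between subsets was -1.87 ± 0.22 (limma adjusted p = 3.68e-10), a call lost in 1 of 16 alternatives, without a variance trend. The 95% intervals of all 8 Gimap members in Treg lay between -0.48 and 0.70, and that of Bcl2 ran from -1.12 to -0.53 on the same log2 scale. In CD4 the member intervals reached down to -0.95 (Gimap7) and up to 1.02 (Gimap5), and that of Bcl2 ran from 0.64 to 1.45. Of the ATG8 genes, the autophagy partners of Gimap6, 0 of 5 were called in Treg and 0 of 4 in CD4 by limma, edgeR or DESeq2, and 0 had an unadjusted limma p under 0.05.

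Cell type markers outside the family also differed with genotype. In Treg, 10 of 11 markers of effector Treg and memory cells were called higher in TRaGS, for example S100a4 (717 ± 45.8 normalised counts in TRaGS and 216 ± 37.2 in TRaWT). Of all genes tested in Treg, 0.959% were called. The marker lists were chosen with earlier results of these data known, so such counts describe these libraries and are no independent test. None of the 11 was at 0 in all libraries, and they summed to 9043 to 10865 normalised counts in TRaGS Treg, against 3940 to 5251 in TRaWT Treg, without overlap. Igfbp4 of the 7 naive markers was called lower in TRaGS Treg, and the 7 summed to 5006 to 5816 in TRaGS Treg, against 6050 to 6242 in TRaWT Treg, without overlap. Of the 7, 1 had a positive fold change in Treg, Il7r (0.32 ± 0.14, not called). Nrp1 and Ikzf2 of the Treg identity genes were called higher in TRaGS Treg, and 5 of the 7 had positive fold changes. Il2ra (log2 fold change -0.40 ± 0.14) and Foxp3 (-0.03 ± 0.14) had negative ones and were not called. Of the B cell markers, Ighm was called higher, and 10 of 10 tested had positive fold changes. They summed to 2040 to 2535 normalised counts in TRaGS Treg, against 1139 to 1607 in TRaWT Treg, without overlap, and to 1063 to 1602 in TRaGS CD4 cells, against 1378 to 2444 in TRaWT CD4 cells. None of the B cell markers was at 0 in all libraries of a subset. In CD4, 0 of the markers in these lists were called by limma, edgeR or DESeq2. The part of these markers in the Gimap values was not tested.

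The genes that flank the cluster were low. Gm44965 and Aoc1 were at 0 in all 16 libraries and AI854703 was below the filter. Zfp775, Tmem176b and Tmem176a were tested and not called in either subset, with group means of 1.29 to 40.1 normalised counts. Each of the 8 Gimap genes, with group means of 222 normalised counts or more, stood above all of these neighbours. The antisense gene Gimap1os averaged 150 ± 22.7 normalised counts in TRaGS Treg and 127 ± 39.1 in TRaWT Treg, and 170 ± 64.0 in TRaGS CD4 cells and 199 ± 86.4 in TRaWT CD4 cells (SD, n = 4 each), and was not called.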

How the data were processed

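Spleen T cells were sorted and sequenced with a 3′ mRNA kit read in the forward orientation, per the labels' protocols. The authors deposited a table for each subset with 8 libraries in columns. Its values are treated as a signal: the authors divided reads by a factor per library, and the factors equalled those of the median-of-ratios method. The submitters' processing notes name GRCm38. Aligner, counting program and strand setting: not given in the sources used here. Values were whole multiples of 1 step per library (100% within a tolerance of 0.001), which gave the reads back. On them edgeR 4.0.16 called 90 genes in Treg and 3 in CD4. Reads without molecular identifiers are not independent molecules, so counting errors cover counting only.

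Within each subset, limma 3.58.1 (R 4.3.3) was run on log2(value + 1) for genes averaging 5 or more normalised counts, using a variance trend and Benjamini-Hochberg adjustment over all genes tested, with calls at 0.05. This scale understates the change of low genes. Prior degrees of freedom were 36.8 in Treg, infinite in CD4 and 106 for the difference between subsets, which was fitted on log2 differences taken within animals. All tests were two-sided. Replicates are separate animals, and no 2 libraries of the same subset and genotype agreed within sampling noise. Alternatives were other pseudocounts, filters and scalings, no variance trend, a replicate block, left-out libraries, TRaGS replicates 1 and 2 alone, and edgeR and DESeq2 1.42.0 on reads. The fits were tested on simulated data.

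The named genes were all 8 members, the 3 nearest genes on each side, the 6 genes most like the family by correlation and the called or 2 lowest-p genes of 4 lists, 1 of which is not reported here. Members and lists were chosen with earlier results of these data known. Symbols matched 47224 identifiers. Gene coordinates are from GENCODE mouse release 21 and promoters from RefSeq on GRCm38.p6. Figures used matplotlib 3.10.9.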

Additional observations from a re-analysis of the deposited data

Results flagged for a closer look

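Gimap3 in Treg of TRaWT mice had 1 library far from the other 3: replicate 2 had 1999.94 normalised counts, against 1329, 1320 and 1324 in replicates 1, 3 and 4. Its gap to the nearest library was 0.987 of the group's range, above Dixon's 95% critical value for 4 samples. It was the only group marked among the 32 groups of 4 that were examined (8 members, 2 subsets, 2 genotypes), and chance marks about 1 in 20 groups. In CD4 of the same animal Gimap3 had 1266 normalised counts, the highest of the 4 TRaWT libraries.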

How the results depend on the processing

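The count of Gimap members called by limma, edgeR or DESeq2 was 0 under every alternative run, 19 in Treg, 19 in CD4 and 16 for the difference between subsets, with lowest adjusted p-values of 0.205 (Gimap7 in Treg without TRaWT replicate 3), 0.464 and 0.328. Counts of all genes moved more. In Treg, 106 genes became 62 without a filter, 0 without a variance trend, 34 with TRaGS replicates 1 and 2 alone and 54 to 108 when 1 library was left out (54 without TRaGS replicate 3, 56 without TRaGS replicate 4). In CD4, 6 became 1 without a filter, 2 with upper-quartile scaling, 0 without a variance trend, 3 with edgeR, 10 with DESeq2 and 1 to 7 with 1 library left out (1 without TRaGS replicate 1 or TRaWT replicate 3, 3 without TRaWT replicate 1, 2 or 4). For the difference, 17 became 1, 11 and 0 under the first 3 of these, 30 with TRaGS replicates 1 and 2 alone and 11 to 30 with 1 animal left out (30 without TRaGS replicate 4, 11 without TRaWT replicate 1 or 2). The cause was not tested.

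The deviations of same-numbered TRaGS and TRaWT libraries from their group means had correlations of -0.021 to 0.0456. Treg and CD4 libraries of the same animal, which are paired, had -0.00529 to 0.0583. This measure therefore cannot tell whether the numbers pair the genotypes. With the replicate number as a block, 112, 4 and 18 genes and 0 members were called. Upper-quartile scaling moved the median of all genes to -0.13 in CD4. Gimap4 in CD4 had an unadjusted p under 0.05 with that scaling and with quantile normalisation, where the median was -0.02. The sign of the fold change turned for Gimap3, Gimap5, Gimap6 and Gimap4 in Treg (6, 5, 4 and 1 of 19), for Gimap3 and Gimap5 in CD4 (1 of 19 each) and for Gimap1, Gimap3 and Gimap5 in the difference (1 of 16 each).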
